A study of Mus musculus with 4 samples.

Results

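Shared intergenic NR1D1 peaks are places between genes where both NR1D1 libraries of the study had a peak. A PBS peak was selected on 3 criteria: 1 bp or more in common with a peak of the vasostatin-2 list, a summit outside every RefSeq gene and more than 1 kb from every gene end, and a summit -log10 q below 100. This gave 577 peaks, which are 22.0% of the 2628 shared PBS peaks (95% Wilson interval 20.4 to 23.6) and 7.82% of the 7377 PBS peaks. Overlap, location and the summit's q value chose the peaks, so these properties are given as a description. A further 18 shared intergenic peaks exceeded the limit on q and were left out.

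The 2 libraries came from primary vascular smooth muscle cells of wild-type mouse aorta, cultured for 24 h with vasostatin-2, a chromogranin A peptide, or with phosphate-buffered saline (PBS). NR1D1 was mapped by CUT&Tag, in which an antibody directs a transposase that releases the DNA beside a bound protein. There was 1 NR1D1 library per treatment, both with the same batch label, so replicate error is unknown and the treatment was not tested. Intervals of shares and of single ratios cover counting error only, and intervals of medians the spread between peaks. All treat peaks or fragments as independent, and none covers replicate error. The IgG control libraries were not analysed here.

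NR1D1 (REV-ERB alpha) is a haem-binding nuclear receptor that recruits a corepressor complex with a histone deacetylase and closes a feedback loop of the circadian clock. It binds the AGGTCA hexamer with an A/T-rich flank, or pairs of it, and is also tethered to DNA by other factors. In liver and macrophages much of its binding lies at enhancers far from gene starts. Peaks between genes are a part of the lists where such distal elements could be found, beside peaks inside genes, together with sites in repeated sequence.

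The peaks were small and alike in both libraries. The number of fragments covering a summit was recovered from the deposited fold enrichment and p-value, and the vasostatin-2 library was 1.32 times as deep as the PBS library by its uniform background. Summits held a median of 10 fragments in the vasostatin-2 library (quartiles 8 and 14, highest 315), against 10 in the PBS library (quartiles 7 and 14, highest 256). Few summits stood out: 7 of 577 reached 100 fragments in PBS, and 128 pairs reached 30 fragments over both libraries. Median peak width was 323 bp in the vasostatin-2 list and 316 bp in the PBS list. PBS widths of at most 250 bp, not far above the mean fragment length of 196 bp in that library, were found at 164 peaks (28.4%). Summits of the 2 lists lay a median of 77 bp apart and within 200 bp at 480 peaks (83.2%). The vasostatin-2 summit was intergenic by the same definition at 573 peaks and at a gene end at the other 4.

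The summits took a sizeable part of the fragments around them. The caller's background allows the fragment ends in the surrounding 10 kb to be counted, and the summit held a median of 25% of that window's fragments in the vasostatin-2 library and 28.6% in the PBS library. At shared gene-end peaks these shares were 21.9% and 26.1%, again with vasostatin-2 given first. At 49 peaks in the vasostatin-2 library and 36 in the PBS library the window held no more than the uniform background, so the shares of these peaks are lower bounds.

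Summits of equal size were shared at similar rates between genes and at gene ends, apart from those with 6 to 8 fragments. With 4 to 5 PBS fragments 8.86% of intergenic, 10.6% of gene-end and 6.01% of within-gene peaks had a vasostatin-2 partner. With 6 to 8 fragments 27.1% of intergenic peaks had one (23.8 to 30.6), against 21.8% (19.3 to 24.6) at gene ends and 21.7% (19.1 to 24.5) inside genes. Of intergenic PBS peaks with 9 to 12 fragments 48.7% had a vasostatin-2 partner (Wilson interval 43.6 to 53.9), against 45.7% (42.3 to 49.1) at gene ends and 42.5% (38.3 to 46.9) inside genes. With 13 to 20 fragments the shares were 69.2%, 66.6% and 65.2%, and with 21 or more 91.4%, 96.5% and 83.8% in the same order. Over all sizes 31.6% of intergenic and 44.0% of gene-end PBS peaks were shared. Sharing is part of the rule, so these shares describe how the peaks were selected.

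**Figure D1:**
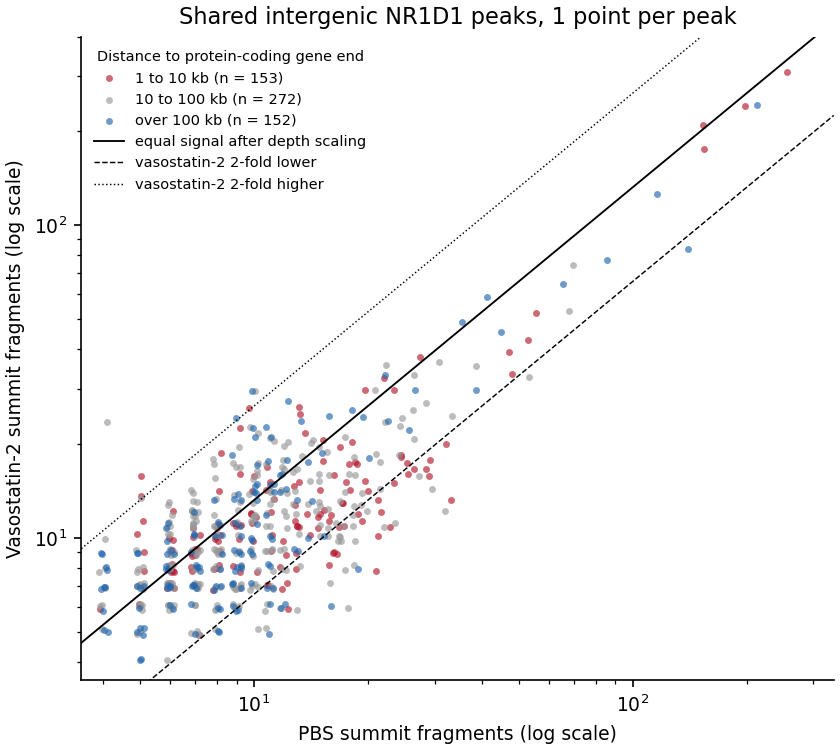
Summit fragments of the 577 shared intergenic peaks in the vasostatin-2 library (vertical, log scale) against the PBS library (horizontal, log scale), with points slightly jittered and coloured by distance to the nearest protein-coding gene end. The solid line marks equal signal after scaling by the relative depth of 1.32; 396 of 577 points (68.6%) lie below it and 181 above, with 68 more than 2-fold lower and 6 more than 2-fold higher, while 83.6% of all 2599 shared peaks are lower and 25.5% more than 2-fold lower.

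Vasostatin-2 signal per unit of depth was below PBS signal at most shared intergenic peaks, but less often than at shared peaks as a whole. Among the 128 pairs with at least 30 fragments together the log2 ratio of vasostatin-2 to PBS fragments at the summit, each divided by depth, had a median of -0.40 (binomial interval of the median -0.56 to -0.24), and 91 pairs (71.1%, 62.7 to 78.2) were lower, where 602 of all 681 shared peaks of that depth (88.4%) were. More than 2-fold lower were 23 of 128 pairs (18.0%), where 42.4% of all 681 shared peaks of that depth and the same q limit were. More than 2-fold higher were 3 of 128, against 0.587% of all such shared peaks; over all 577 pairs it was 6, against 0.539% of all 2599 shared peaks under the q limit. The exact counting interval of the ratio lay wholly below equal signal at 29 intergenic pairs (22.7%), against 46.1% of all 681, and wholly above it at 2, against 0.294%. The direction rests on the depth factor: without it the median was 0.00 and 47.7% were lower.

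The reduction was smaller between genes than inside or at the ends of genes. With at least 30 fragments together the median log2 ratio was -0.68 (-0.85 to -0.55) at 156 shared peaks inside genes and -1.05 (-1.09 to -0.98) at 397 shared gene-end peaks, so the interval for intergenic peaks did not reach that of gene ends and touched that of peaks inside genes. The same order was seen in most smaller size classes. With 21 to 29 fragments together the medians were -0.27 at 144 intergenic pairs, -0.51 at 223 pairs inside genes and -0.81 at 357 gene-end pairs, and with 13 to 16 they were -0.18, -0.40 and -0.76. With 9 to 12 fragments they were -0.14 at intergenic pairs and -0.40 both inside genes and at gene ends. These differences do not depend on the depth factor, but peaks of 1 library are not replicates and no test was made. The fragments in the surrounding 10 kb moved with the summits. Their median log2 ratio after depth scaling was -0.31 around the 128 intergenic pairs and -0.76 around the gene-end pairs. This count includes the summit fragments, so it moves with them in part by construction. The part of the surroundings in the result was not tested.

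Peaks nearest to genes had the lowest ratios among pairs with at least 30 fragments. The median log2 ratio was -0.81 (-1.08 to -0.48) at 23 pairs 1 to 5 kb from a protein-coding gene end, and 20 of them were lower. It was -0.25 (-0.81 to -0.02) at 25 pairs 5 to 10 kb away, -0.45 (-0.71 to -0.15) at 43 pairs 10 to 50 kb away and -0.34 (-0.81 to 0.34) at 9 pairs 50 to 100 kb away. Beyond 100 kb the median was -0.00074 (-0.29 to 0.19) at 28 pairs, of which 14 were lower. Leaving out chromosome Y and the first 200 kb of chromosomes, the medians were -0.77 at 44 pairs within 10 kb and 0.07 at 21 pairs beyond 100 kb. The contrast between pairs within 10 kb and beyond 100 kb was -0.72 in log2 ratio here. It was -0.58 with at least 20 fragments (293 pairs) and -0.04 over all 577 peaks. With at least 50 fragments it turned to 0.19, but only 35 pairs over all distances remained. Its size and direction thus varied with the fragment minimum.

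**Figure D2:**
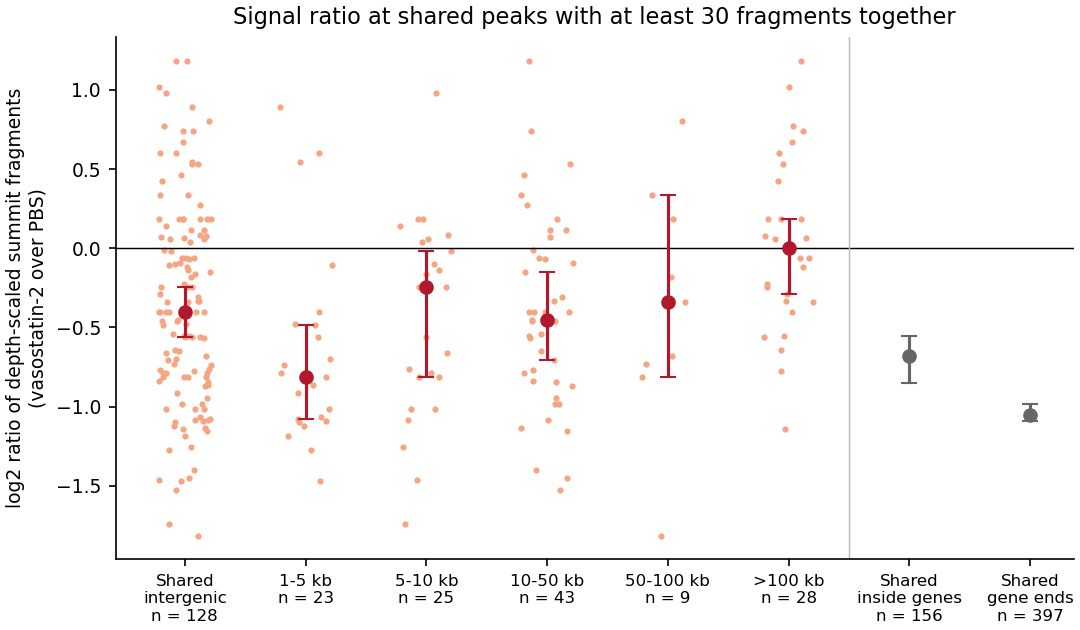
Log2 ratio of vasostatin-2 to PBS fragments at the summit, divided by depth, for shared peaks with at least 30 fragments together; small points are single intergenic pairs, large points medians and bars their binomial intervals. All intergenic pairs stand at the left, then the same pairs by distance to the nearest protein-coding gene end, then shared peaks inside genes and at gene ends; the median is -0.40 for intergenic pairs and -1.05 at gene ends.

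Most of the peaks lay within reach of a protein-coding gene without touching it. The median distance to the nearest protein-coding gene end was 25367 bp (22431 to 30971), with quartiles of 9440 and 108533 bp. Within 10 kb were 153 peaks (26.5%, 23.1 to 30.3), within 50 kb 361 (62.6%), and within 100 kb 425 (73.7%, 69.9 to 77.1). Intergenic peaks of the PBS list alone lay farther out, with a median of 39031 bp (35314 to 46089) and 68.7% (66.1 to 71.2) within 100 kb. That order turned round among peaks of at least 9 fragments: 74.7% (69.9 to 79.0) of 344 shared and 84.7% (79.5 to 88.7) of 235 PBS-only intergenic peaks lay within 100 kb. PBS-only peaks had a median of 6 fragments over all sizes.

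Where the strand of the nearest protein-coding gene was known, peaks within 10 kb lay upstream of its start in 71 of 119 cases (59.7%, 50.7 to 68.0), against 108 of 232 (46.6%, 40.2 to 53.0) for intergenic peaks of the PBS list alone. Over all distances 55.9% and 51.5% were upstream, with the shared peaks first. Counting every annotated gene, the nearest was protein-coding at 240 peaks, a long noncoding RNA at 198 and a pseudogene at 108.

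**Figure D3:**
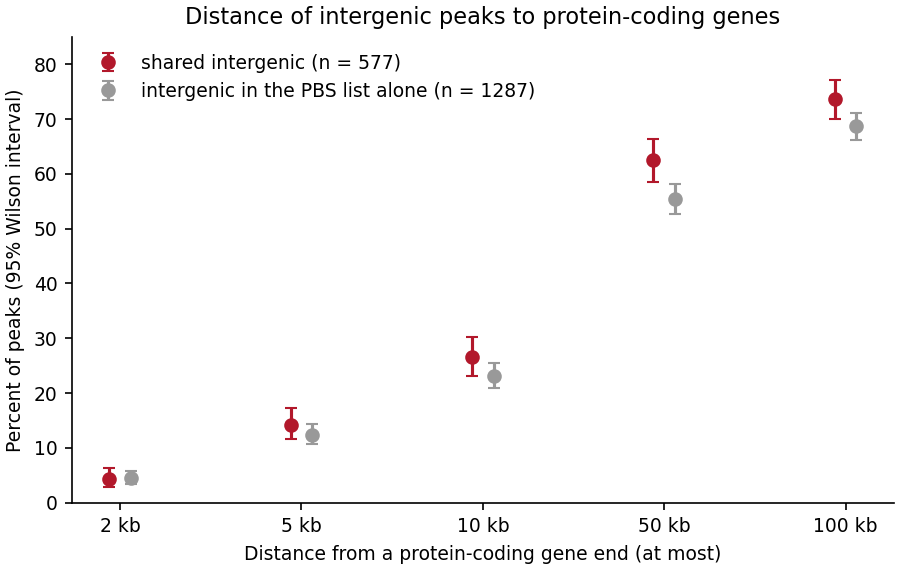
Percent of shared intergenic peaks (red, left in each pair) and of intergenic peaks in the PBS list alone (grey) within 2, 5, 10, 50 and 100 kb of a protein-coding gene end, with 95% Wilson intervals. At 100 kb the shares are 73.7% and 68.7%.

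Immediate early genes, which cells induce within minutes of a stimulus, had shared intergenic peaks beside them more than any other of the 14 gene lists examined. Of 20 such genes 8 were the nearest protein-coding gene to a peak within 100 kb, with 9 peaks in all, where 1.81% of all 21883 protein-coding genes (395) were. The count was 5 when summits had to lie within 200 bp of each other and 4 with a margin of 5 kb from gene ends. The list is short and was set with earlier results of these data known, so the count is a description. After depth scaling vasostatin-2 signal was below PBS signal at all 9 peaks. The same held for 68.6% of the 577 shared intergenic peaks and 83.6% of all 2599 shared peaks. Unscaled vasostatin-2 fragments were also fewer than PBS fragments at all 9. The median log2 ratio of the 9 after depth scaling was -0.72 at the summit and -0.71 for the fragments in the surrounding 10 kb. The latter count includes the summit fragments, and the part of the surroundings in the result was not tested. The counting interval of the ratio lay below equal signal at 1 of the 9, with 15.5% of all 2599 shared peaks doing so. That peak, at Zfp36, had summits more than 200 bp apart in the 2 lists. So did the nearer Fos peak and those at Egr3 and Nr4a1, so their fragments were counted at different positions. Median widths at these 9 peaks were 698 bp in the vasostatin-2 list and 528 bp in the PBS list, above the medians of all shared intergenic peaks.

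AP-1 subunits and a partner account for 4 of the 9 peaks. Junb, which encodes a JUN family subunit of AP-1, was marked on chromosome 8, 84979711 to 84980188, with a summit 1116 bp upstream that held 18 fragments in the vasostatin-2 library and 24 in the PBS library. Fos, the partner subunit, had a pair of peaks downstream of the gene. The one 8652 bp away held 9 fragments with vasostatin-2 and 16 with PBS, a log2 ratio of -1.23, and the one 20404 bp away 8 and 10 fragments in that order. Atf3, a stress-induced factor that pairs with JUN proteins, had a peak 32725 bp upstream with 16 fragments with vasostatin-2 and 19 with PBS.

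The remaining 5 genes act beside AP-1 in the early response. Zfp36 encodes tristetraprolin, which speeds the decay of inflammatory mRNAs, and had the largest peak of the group, with 20 fragments with vasostatin-2 and 32 with PBS (log2 ratio -1.08, -1.96 to -0.23) 2072 bp upstream. Nr4a1, an orphan nuclear receptor, had 13 vasostatin-2 and 17 PBS fragments 7454 bp upstream. Egr3, a zinc finger factor, had 12 and 15 fragments 2445 bp away, Ier2 17 and 19 fragments 1271 bp away, and Ier3 10 and 11 fragments 8422 bp upstream, vasostatin-2 first in each. Further peaks with a summit inside the gene or within 1 kb of it were present in both lists at Atf3, Fos, Ier3 and Nr4a1, in the PBS list alone at Junb, and in neither at Egr3, Ier2 and Zfp36.

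**Figure D4:**
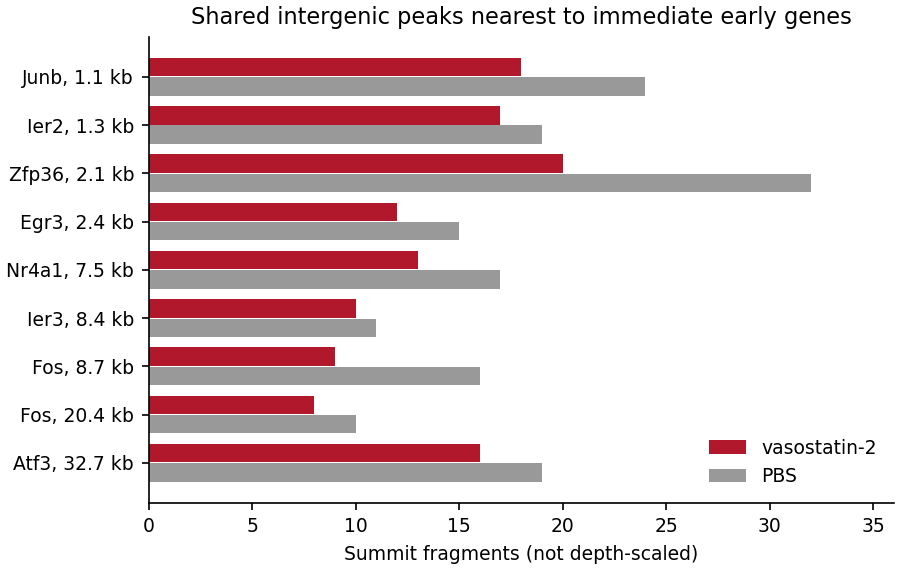
Summit fragments, not scaled for depth, at the 9 shared intergenic peaks whose nearest protein-coding gene is an immediate early gene, with the vasostatin-2 library in red above the PBS library in grey and the distance from the gene end in the row names. The vasostatin-2 bar is the shorter one in every row, from 8 against 10 fragments at the farther Fos peak to 20 against 32 at Zfp36.

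Core clock genes had no shared intergenic peak: 0 of 24 clock and clock output genes was the nearest gene within 100 kb. The same was found for 24 inflammatory and NF-kB genes, 24 lipid and glucose genes, 20 oxidative stress and ferroptosis genes, 27 genes of nuclear receptors, a list without the REV-ERB, ROR and NR4A families, and 23 growth factor and vasoactive receptor genes. Against a background of 1.81% of genes, a list of this length is expected to hold few or none. Peaks of these genes inside the gene or at its ends are outside the definition used here.

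On other lists marks were few. Against the background of 1.81%, a shared intergenic peak marked 2 of 22 contractile genes, 3 of 26 homeobox and vascular development genes, 1 of 28 matrix genes, 1 of 26 TGF-beta, SMAD and Notch genes, 1 of 20 cell cycle genes and 1 of 18 autophagy genes. At these list lengths the background comes to less than 1 gene per list, so a share from a single mark says little. Tpm1, which encodes tropomyosin of the contractile apparatus, was marked on chromosome 9, 67058100 to 67058529, 8522 bp upstream, by a peak with 26 fragments in the vasostatin-2 library and 10 in the PBS library. Its log2 ratio of 0.98 had a counting interval that included equal signal (-0.12 to 2.2). Mrtfa, a coactivator of serum response factor, had 11 vasostatin-2 and 7 PBS fragments 9997 bp upstream. Tead1, a factor of the Hippo pathway, had 7 fragments with vasostatin-2 and 16 with PBS, a log2 ratio of -1.59. Col5a1, a fibrillar collagen gene, had 7 and 10, Runx2, an osteogenic factor, 13 and 8, and Tbx5, a heart and limb factor, 9 and 7, with vasostatin-2 first. Single peaks were also nearest to Smad7, an inhibitor of TGF-beta signalling (12 and 7), Cdkn1a, which encodes the cell cycle inhibitor p21 (8 and 6), and Lamp2, a lysosomal membrane protein gene (9 and 12).

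Of the 6 lowest ratios among pairs with at least 30 fragments, 5 lay within 15454 bp of a protein-coding gene. Nearest to Gm52481 on chromosome Y, 67905 bp away, the summit held 12 fragments with vasostatin-2 and 32 with PBS (log2 ratio -1.81, -2.91 to -0.82). Slc2a3, the glucose transporter GLUT3, was marked 8728 bp from the gene, on chromosome 6, 122810866 to 122811500, by a peak with 13 fragments with vasostatin-2 and 33 with PBS (-1.74, -2.79 to -0.78). Misp, a mitotic spindle protein gene, followed with 11 and 24 fragments, and Hspa9, which encodes the mitochondrial chaperone mortalin, with 10 and 21. Wfikkn2, a secreted inhibitor of myostatin, had 11 and 23, and Fgf23, a hormone of phosphate balance, 14 and 29. Counting intervals at all 6 lay below equal signal, as they did at 22.7% of the 128 pairs and 46.1% of all 681 shared peaks of that depth. The 6 were picked for their low ratios, so these intervals add no support.

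Peaks with more vasostatin-2 than PBS signal were fewer. Near Has2, the hyaluronan synthase gene, the summit held 30 fragments with vasostatin-2 and 10 with PBS, on chromosome 15, 56868655 to 56869050, 174292 bp from the gene (log2 ratio 1.19, 0.11 to 2.38). Tob1, an antiproliferative gene, had the same 30 and 10 fragments 16830 bp upstream, with the same ratio. Its summits, at 94192709 with vasostatin-2 and 94193012 with PBS, lay more than 200 bp apart, so these counts come from different positions. Next came peaks nearest to Cr2 (24 and 9, 194856 bp away), Tpm1, Il2ra (22 and 9, 3256 bp upstream) and Fam171a1 (23 and 10), whose intervals included equal signal. Intervals lay wholly above equal signal at 2 of the 128 pairs and at 0.294% of all 681 shared peaks of that depth. These 6 peaks were picked for their high ratios, so their intervals add no support. Tob1 and Wfikkn2 are neighbours on chromosome 11, and their peaks, with ratios of opposite sign, lay on chromosome 11 at 94192671 to 94193056 and 94225902 to 94226301.

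The peaks of highest enrichment were mostly narrow. Ranked by the authors' fold within the PBS list, the first was a 242 bp peak on chromosome 12, 93576979 to 93577220, 682137 bp from Gm40892, with 27.1-fold enrichment and 85 PBS fragments, and with 27.8-fold and 76 fragments in the vasostatin-2 list. Tcstv3 marked the next (24.0-fold in PBS, 53 fragments with vasostatin-2 and 56 with PBS), past the last annotated gene of chromosome 13. Peaks nearest to Kcnh5, a potassium channel gene (22.5-fold in PBS, 73 and 70 fragments), Asmt, of melatonin synthesis (17.9-fold, 54 and 68), and Cr2 (16.8-fold, 36 and 31) followed, with vasostatin-2 fragments first. The last of the 8 were nearest to Pex2, a peroxisome gene (15.7-fold), Vmn2r129, a pheromone receptor gene (14.8-fold), and Slc2a3 (14.7-fold). The first 5 were 222 to 291 bp wide in the PBS list, and the Slc2a3 peak 635 bp.

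Very large pileups were found near the start of chromosomes 9 and 10. On chromosome 10 a run of 4 peaks with summits from 3110328 to 3116453 held 175 to 315 fragments in the vasostatin-2 library and 150 to 256 in the PBS library, with PBS folds of only 3.33 to 5.67, since the 10 kb windows held 4113 to 5550 fragment ends with vasostatin-2 and 3369 to 4524 with PBS. On chromosome 9 a run of 3 between 3002125 and 3034979 held 46 to 241 and 44 to 214 fragments, vasostatin-2 first. In all 13 peaks had summits below position 3200000 of their chromosome. The widest peak, singled out after its value was seen, spanned 3158 bp on chromosome 17, 39843166 to 39846323, with its summit 1239 bp from Rn18s-rs5, a copy of the 18S ribosomal RNA gene annotated as a pseudogene. It held 85 fragments with vasostatin-2 and 142 with PBS.

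Chromosome Y contributed out of proportion. It held 31 of the 577 peaks (5.37%, 3.81 to 7.53) but 0.827% of all PBS peaks, and 31 of its 61 PBS peaks (50.8%) were shared intergenic ones. On the other chromosomes this share ran between 4.64% on chromosome 7 and 10.7% on chromosome 6. These shares mix location with sharing: 59 of the 61 PBS peaks of chromosome Y (96.7%) were intergenic, where 1882 of all 7377 PBS peaks were. Of the 59 intergenic ones 31 were among the 577, where 31.6% of all 1882 were shared, counted without the q limit. The Y summits held a median of 10 fragments with vasostatin-2 and 9 with PBS, close to the medians of all 577. A run of 5 near Gm20873, between 6014294 and 6130875, was the longest run of peaks with steps of at most 50 kb. Whether reads of repeated sequence placed on several chromosomes contribute to these sites was not tested.

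Elsewhere the peaks were scattered singly. Runs of 2 or more with steps of at most 50 kb took in 78 of the 577, and 7 runs had 3 or more members. Away from chromosome Y and the chromosome starts these runs lay upstream of Apba2, a neuronal adaptor protein gene (3 peaks, 11 to 20 fragments with vasostatin-2 and 8 to 23 with PBS), and upstream of Ifnar2, an interferon receptor subunit (3 peaks, 13 to 18 and 7 to 17). Another run of 3 lay near Zswim4, Nanos3 and the Mir23a microRNA gene on chromosome 8 (7 to 23 and 9 to 24), and one near Gm40363 (12 to 16 and 10 to 13), each with vasostatin-2 first. The Ifnar2 and Gm40363 runs were named after their values were seen.

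Peaks at the edges of the rule are given without a test. The summits closest to a gene were 1002 bp from Slc36a1, a proton-coupled amino acid transporter gene (8 fragments with vasostatin-2 and 9 with PBS), 1048 bp from Gfus, an enzyme gene of GDP-fucose synthesis (17 and 26), and 1049 bp from Ubb, a polyubiquitin gene (9 and 13). Next were summits 1085 bp from Lamr1-ps1 (8 and 16) and 1112 bp from 4930591A17Rik (10 and 5). The farthest lay 307558 bp from any gene, on chromosome 10 at 113239019 to 113239217, with 6 fragments with vasostatin-2 and 11 with PBS. Of the next 4 farthest, 3 were on chromosome Y near Gm20873 and Gm20830, and the other was 275957 bp from any gene, with Auts2 as the nearest protein-coding gene (22 and 11). Just inside the q limit were the largest chromosome 10 peak above (-log10 q 99.7 in PBS) and those nearest to Gm40892 (96.7) and Kcnh5 (73.6). Just outside were peaks nearest to Gpd2 (101 in PBS), Scaf8 (119) and Gm2244 (139).

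Of the 577 peaks 1 reached a promoter window of the reference table, and its sequence is shown because it is the only stretch under these peaks for which letters were at hand. The Ubb peak spanned 1251 bp in PBS, on chromosome 11 from 62549871 to 62551121, and its downstream edge covered the bases 250 to 50 before the gene's start (RefSeq, GRCm38.p6, chr11:62550921-62551121, plus strand). They were 62.7% G or C with 24 CpG pairs:
Ubb: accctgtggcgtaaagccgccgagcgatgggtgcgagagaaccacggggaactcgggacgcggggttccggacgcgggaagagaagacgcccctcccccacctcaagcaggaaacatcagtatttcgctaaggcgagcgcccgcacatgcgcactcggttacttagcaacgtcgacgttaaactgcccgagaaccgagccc
No letters are in capitals because none of the motifs searched on both strands was in this stretch. AGGTCA, the core hexamer of NR1D1 sites, was in 11.5% of 32851 promoter windows over the same 201 bases. TAGGTCA was in 1.79% and TGGGTCA in 2.68%, TAGGTCA holding AGGTCA and TGGGTCA sharing its last letters. The direct repeat of AGGTCA with 2 bases between was in 0.00913%, the AP-1 motif TGANTCA in 5.59% and the E-box CACGTG in 4.36%. The vasostatin-2 peak at this site was 263 bp wide and did not reach the window.

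Binding near a gene does not measure its expression, and marker genes describe only the lists. Of 5 smooth muscle markers (Acta2, Myh11, Tagln, Cnn1 and Smtn) 2 had a vasostatin-2 peak and 3 a PBS peak within 10 kb, and 0 had a shared intergenic peak there. Of 3 endothelial and 3 macrophage markers 1 each had a vasostatin-2 peak and 1 each a PBS peak, and of 3 fibroblast markers 0 had either.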

How the data were processed

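Peak lists of 1 NR1D1 CUT&Tag library per treatment were used. Per the submitters' processing notes the build was mm10, and MACS2 2.2.7.1, BWA 0.7.17 and Trimmomatic 0.39 were the tools, with roles and settings not given in the sources used here. In the peak lists the deposited fold is the ratio of the summit to local background. The deposited -log10 p and -log10 q belong to the summit. The deposited score is -log10 q scaled and was not used further.

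Summit fragments were solved from fold and p with the caller's Poisson formula, within 0.0005 of the deposited value for 100% of peaks (4 PBS peaks had a close second solution). The step was tested on 2000 simulated peaks (100% recovered), and overlaps on 1000 against bedtools 2.31.1 (100% equal). Above its floor (0.381 with vasostatin-2, 0.310 with PBS) the background moved in steps of 1 fragment end per window, assumed to be 10 kb, giving mean fragment lengths of 183 and 196 bp and the relative depth of 1.32. Total fragments are not given. The steps fit a background taken from the NR1D1 library itself, which no source used here states; such a background does not remove repeated sequence.

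Gene positions are those of RefSeq for GRCm38.p6 (49939 genes), and strand came from its promoter table, for 17491 of 21883 protein-coding genes. A pair was the PBS peak and the vasostatin-2 peak of largest overlap. Peaks and lists were chosen with earlier results of these data known. Named peaks are the 8 of highest PBS fold, 6 lowest and 6 highest ratios, 5 closest to and 5 farthest from genes, up to 4 per gene list by fragments (for immediate early genes the other 5 were added after their values were seen), the 5 longest runs, and 3 on each side of the q limit; 1 of these peaks is not reported here. The planned motif search under the peaks was not run, since no genome was used here. Python 3.11.15 with scipy 1.17.1 was used.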

Additional observations from a re-analysis of the deposited data

How the results depend on the processing

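Leaving out chromosome Y, or the first 200 kb of chromosomes, was a choice made once the data had been seen. With a margin of 5 kb from gene ends, members were 15.9% of shared peaks, the median log2 ratio -0.24, with 61.9% of pairs lower and 10.7% more than 2-fold lower, the median distance 38757 bp with 13.1% within 10 kb, and 4 immediate early genes were marked. With protein-coding genes alone, members were 28.4% of shared peaks. With -log10 q of at least 5 in both lists 217 peaks remained, at a median distance of 21402 bp. With summits within 200 bp 5 immediate early genes were marked. Without division by depth the median log2 ratio was 0.00, with 47.7% lower and 4.69% more than 2-fold lower. Over all members it was -0.23, with 11.8% more than 2-fold lower, and with at least 50 fragments together 8.57% were more than 2-fold lower. The contrast in log2 ratio between pairs within 10 kb and beyond 100 kb was -0.72. It turned to 0.19 with at least 50 fragments, where 35 pairs over all distances remained. It was -0.04 over all members and -0.31 with the 5 kb margin, and no interval was computed for it. Beyond what fewer or smaller peaks bring by construction, the cause was not tested. Apart from that contrast, which ran between -0.84 and -0.49 under the remaining settings, the other recomputed values stayed inside the interval of the main value or within 1.5 times the main count. No paired analysis was possible because each treatment has 1 NR1D1 library. Most summits hold about 10 fragments, which limits every single ratio.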
